A study of Mus musculus with 17 samples.

Results

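The mitochondrial respiratory chain genes on this array were followed across mouse CD4 T cells cultured with TGFbeta. Members were all genes of the platform's gene table whose symbol begins with Nduf, Uqcr, Sdh and one of the letters a to d, Cox4 to Cox8, or Atp5. With only probe sets of 1 gene symbol kept, 185 probe sets named 94 members among 18194 genes. Each member was read from the probe set with its highest mean.

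Complex I takes electrons from NADH, complex II takes them from succinate as part of the citric acid cycle, and both hand them to ubiquinone. Complex III passes them to cytochrome c and complex IV to oxygen, while protons are pumped out, and complex V, the ATP synthase, makes ATP as the protons return. Assembly factors build the complexes without being part of the finished enzymes. T cells raise both glycolysis and respiration when they are activated, and regulatory T cells are known for relying on respiration. The members fell into 42 genes of complex I (6 core subunits, 28 accessory subunits and 8 assembly factors), 8 of complex II, 8 of complex III, 19 of complex IV and 17 of complex V. Ndufa4, first described in complex I and now placed in complex IV, and its relative Ndufa4l2 were counted with complex IV.

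The 17 arrays came from 2 experiments, and each array held cells of 3 pooled male mice of 6 to 10 weeks. In the co-culture, splenic CD4+Foxp3- T cells of C57BL/6-Foxp3/GFP mice were stimulated with anti-CD3 (1 µg/ml), TGFbeta (0.6 ng/ml) and IL-2 (5 ng/ml) for 5 days beside dendritic cells, with 10 T cells for each dendritic cell. The dendritic cells came from spleen (Sp-DC) or lamina propria (LP-DC), and 1 set of Sp-DC cultures also received 100 nM retinoic acid (RA), the vitamin A metabolite that acts through nuclear receptors. Cultured T cells were then sorted by their Foxp3/GFP reporter into Foxp3+ and Foxp3- cells. For 5 of the 6 Foxp3+ arrays the source name gives Foxp3- cells, the cells put into culture, and the group was taken from the title, while the sort label gives GFP+ for all 6. This gave 2 arrays in each of 5 groups and 1 array, numbered 2, in the Foxp3- cells of the Sp-DC plus RA culture. In the memory experiment, CD44hiCD62L-CD25- CD4+ T cells of C57BL/6 mice, from spleen and from mesenteric and cervical lymph nodes, were cultured at 2 to 1 with naive CD4+ T cells. Those cultures held TGFbeta at 10 ng/ml, IL-2 at 20 U/ml and beads bearing anti-CD3 and anti-CD28 for 48 h, without RA (3 arrays) or with 100 nM RA (3 arrays), and the memory cells were sorted back by their CD45 congenic marker. Every group was thus exposed to TGFbeta, IL-2 and T cell receptor stimulation, and no array held uncultured cells. Nothing states that the arrays of a group came from separate cultures, so the p-values measure the spread between these arrays only.

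Signals are log2 of the deposited intensities, and array medians lay between 5.88 and 5.98. The 8 T cell identity genes measured lay above the array median on all 17 arrays, with summed linear signals of 14429 to 18708 in the co-culture and 6279 to 8501 in the memory arrays. Of 10 dendritic cell and macrophage markers, 5 lay below the median on all arrays (Itgax, Itgam, Xcr1, Cd209a and Lyz2) and 4 above it on all (Flt3, Siglech, Csf1r and Adgre1). Their summed linear signal was 649 to 815 in the Sp-DC groups, 858 to 1018 with Sp-DC plus RA, 645 to 711 in the LP-DC groups and 531 to 883 in the memory arrays. The Foxp3 probe set lay at 3.88 to 4.53 on all 11 co-culture arrays, below their medians, with 3.88 to 4.44 in the Foxp3- and 4.09 to 4.53 in the Foxp3+ groups, so it could not check the sort. In the memory arrays it lay at 7.08 to 9.14. The 2 memory arrays numbered 3 stood apart: they correlated with the other memory arrays at 0.859 to 0.909 over genes, against 0.969 to 0.987 among the others and 0.982 with each other. The members' counts and medians, and the genes named in the RA comparison that passed, are therefore also given without them. The values of Sdha, Sdhb, Sdhc, Sdhd, Atp5e, Ndufb2, Atp5pb, Cd2 and Cd3e in that comparison rest on all 6 memory arrays.

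The chain was broadly detected. Of the 94 members, 83 lay above the array median on all 17 arrays, and 87 passed the filter for testing in both experiments (above the median on at least 2 arrays of the experiment). The members' median signal was between 10.04 and 10.51 on every array. Of the 7 members not tested, 5 were isoforms of complex IV known from other tissues or conditions. Cox7a1 and Cox8b, forms of heart and skeletal muscle, reached at most 5.65 and 5.67. Cox6b2, a testis form, reached at most 5.26, Cox7b2 3.74 and Ndufa4l2, a hypoxia-induced relative of Ndufa4, 5.93. Their signals lay below the median of every array. The broadly expressed counterparts Cox4i1, Cox6a1, Cox6b1, Cox7a2 and Cox8a lay above the median on all 17 arrays. Among the remaining isoforms, Cox6a2, another muscle form, was above the median on 9 arrays, while Cox4i2 (6.23 to 6.90) and Cox8c (8.02 to 8.43) were above it on all. The other members not tested were the complex I accessory subunits Ndufb1, above the median on 1 array, and Ndufb4, above it on none. Probe sets that also name Ndufb4b and Ndufb4c were left out by the rule and lay between 8.42 and 10.38, so the low value of Ndufb4 belongs to its single-symbol probe set.

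**Figure D1:**
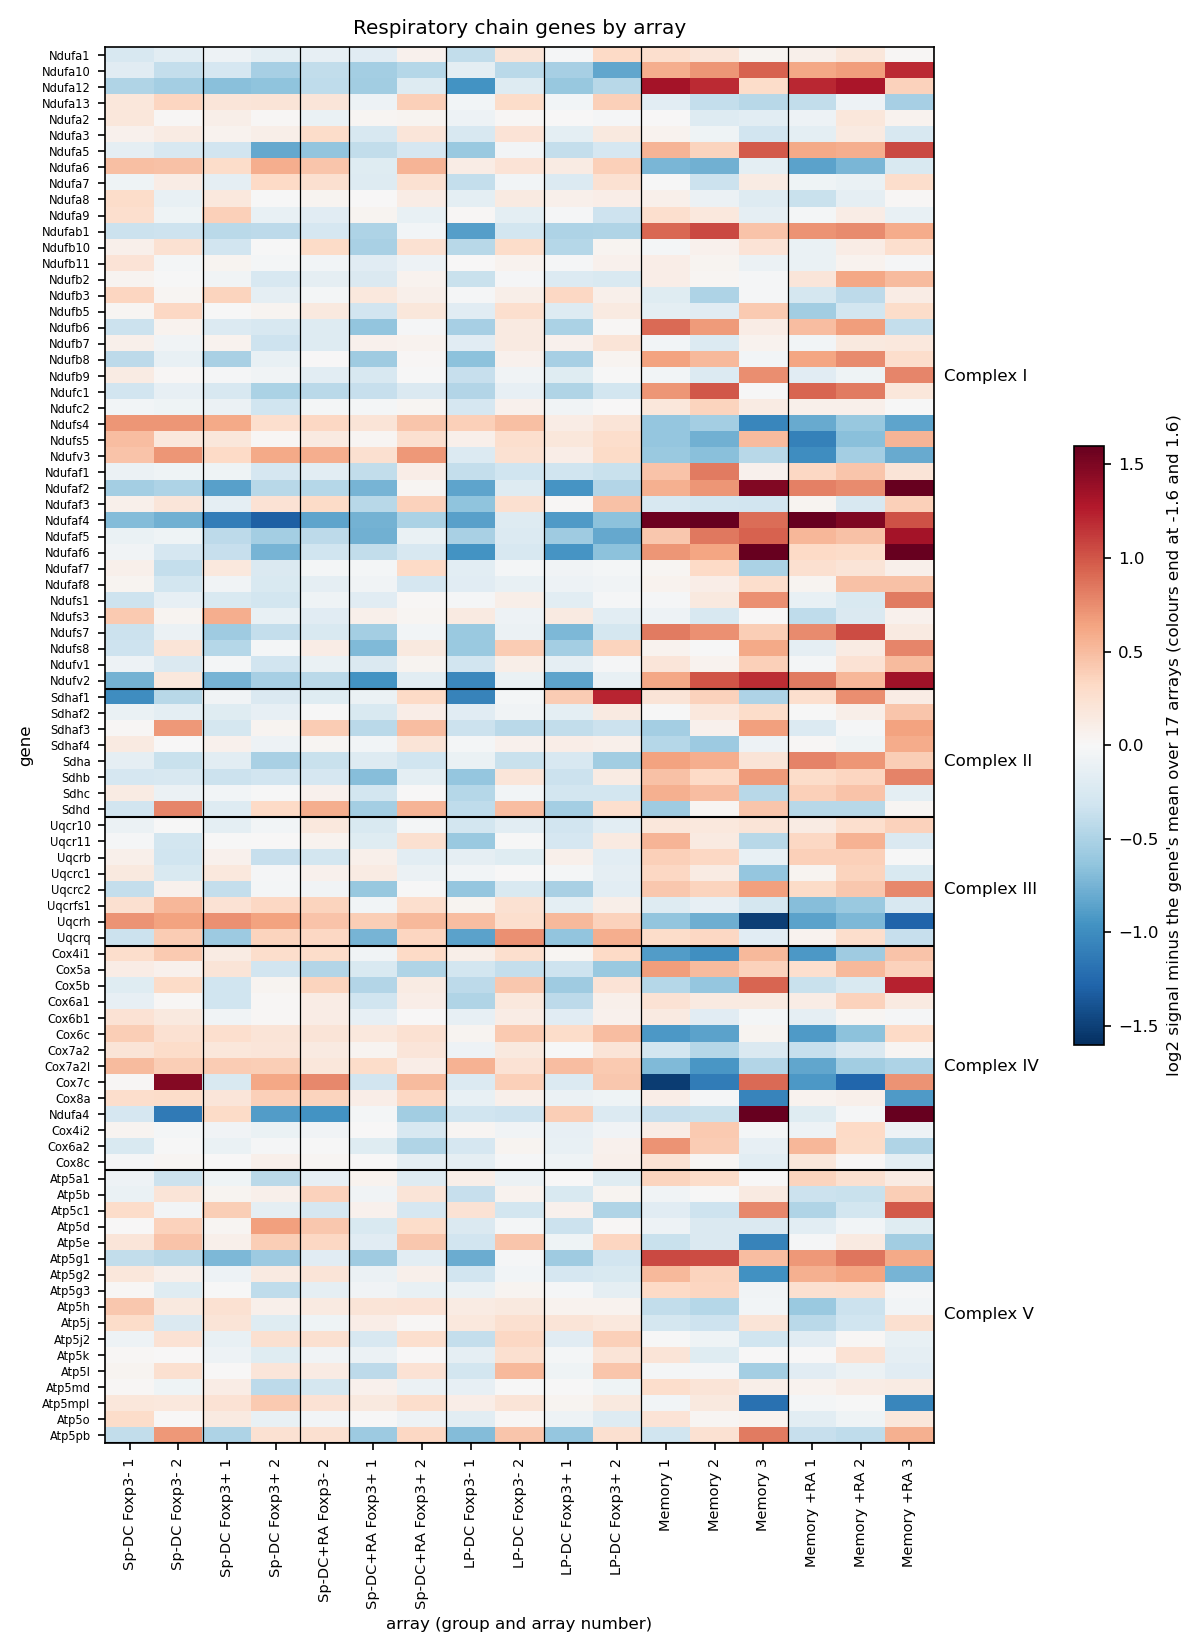
Each row is 1 of the 87 tested members, grouped by complex, and each column 1 of the 17 arrays. Colours give log2 signal minus the gene's mean over all arrays, and blocks of colour separate the 6 memory arrays, at the right, from the 11 co-culture arrays and, within the memory arrays, those numbered 3 from the rest.

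RA in memory cells was the first question put to these genes. In the limma fit with 1 coefficient per group (the unpaired fit), 0 of 87 members passed an adjusted p of 0.05 and 0 had an unadjusted p under 0.05. The backgrounds among the 12163 genes tested were 0.0987% (12 genes) at the adjusted and 4.14% (504 genes) at the unadjusted threshold. The members' median log2 difference was 0.02, with 50 of 87 above 0, and differences ran from -0.32 to 0.55. No complex stood out: the medians were 0.01 for complex I, 0.05 for II, 0.04 for III, 0.07 for IV and -0.01 for V. Array numbers were taken to pair the arrays, so a second fit of each comparison took that number as a block. It is called the paired fit. In the paired fit 4 members (4.6%) had an unadjusted p under 0.05, against 15.7% of all genes. At the adjusted threshold 5.15% of all genes passed there, and 1 member did.

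That member was Sdhaf4, an assembly factor that helps flavin-bearing Sdha join Sdhb in complex II. Its signal was 7.52, 7.40 and 7.90 in memory cells without RA and 7.99, 7.91 and 8.57 with RA, for arrays 1, 2 and 3. It was higher with RA in all 3 pairs, by 0.47, 0.51 and 0.66, and the groups did not overlap, though untreated array 3 (7.90) lay just under treated array 2 (7.91). The difference was 0.55 ± 0.13 (SE, 95% interval 0.26 to 0.83, 1.46-fold), with an adjusted p of 0.0404 in limma's paired fit (unpaired 1). Without both arrays numbered 3 the paired difference was 0.49 ± 0.17, and it did not pass (adjusted p = 0.307, paired limma fit). That fit had 1 residual degree of freedom and passed 1.87% of all genes, against 5.15% with all arrays. Loss of the call there does not show that the arrays numbered 3 carry the difference. With no filter on low signals the adjusted p was 0.0576. On the 11 co-culture arrays Sdhaf4 lay between 7.89 and 8.18, and its RA difference in Foxp3+ cells there was 0.08 ± 0.14 (adjusted p = 0.873, paired limma fit).

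The partners of Sdhaf4 in complex II did not pass in memory cells. Sdha, the flavoprotein that oxidises succinate, differed by 0.15 ± 0.12 with RA in the paired limma fit (adjusted p = 0.648). Sdhb, the iron-sulfur subunit, differed by -0.01 ± 0.13 and Sdhc, a membrane anchor, by 0.02 ± 0.14. Sdhd, the other anchor, differed by -0.25 ± 0.15 with an adjusted p of 0.503. The next largest differences above 0 were those of Atp5e and Ndufb2, at 0.40 each, and Atp5pb, a stalk subunit of the ATP synthase, had the lowest, at -0.32. In the paired limma fit their adjusted p-values were 0.129 for Atp5e, the epsilon subunit, 0.201 for Ndufb2, a membrane-arm subunit of complex I, and 0.35 for Atp5pb. In that fit the 95% interval lay within 2-fold in either direction for 87 of 87 members, against 95.4% of all genes. The unpaired interval did so for 70 members (80.5%), against 67.7% of all genes.

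Genes around the chain were read from lists, also chosen with earlier results known. Of 41 tested chain partners and assembly factors outside the naming rule, 0 passed unpaired and 1 passed paired with RA in memory cells. This was Ttc19, a complex III assembly protein, which rose by 0.69 ± 0.16 (adjusted p = 0.0418, paired limma fit). None of 20 regulators of mitochondrial biogenesis and none of 76 mitochondrial ribosome genes passed in either fit, with medians of -0.03 and -0.02. Of 22 genes of pyruvate dehydrogenase and the citric acid cycle 1 fell in the paired fit. It was Pdk1, the kinase that switches pyruvate dehydrogenase off, by 0.85 ± 0.13 (adjusted p = 0.00447, paired limma fit, 0.313 unpaired). Pdk1 was also 1 of 12 hypoxia-linked genes, of which 10 fell when paired and 1 when unpaired, with a list median of -0.85. Ndrg1 fell by 2.57 ± 0.14 and Bnip3, a mitophagy receptor, fell by 2.01 ± 0.19 (adjusted p = 2.13e-05 and 0.00039, paired limma fit). Egln3, an oxygen-sensing prolyl hydroxylase, fell by 1.28 ± 0.17 and Slc2a1, the main glucose transporter of T cells, fell by 1.14 ± 0.13. The median of all genes in this comparison was -0.00. Without both arrays numbered 3, with 1 residual degree of freedom, 1.87% of all genes passed in the paired fit and 4 of the 12 hypoxia-linked genes fell. These were Ndrg1 (-2.43 ± 0.18), Bnip3 (-2.07 ± 0.26), Egln3 (-1.39 ± 0.22) and Slc2a1 (-1.16 ± 0.18), with adjusted p-values of 0.0017 to 0.0269 in limma. Pdk1 (-0.81 ± 0.17) and Ttc19 (0.91 ± 0.18) did not pass, with adjusted p-values of 0.0817 and 0.0556. Among 8 T cell identity genes, Cd2 fell by 0.65 ± 0.14 and Cd3e rose by 0.57 ± 0.13 (adjusted p = 0.0289 and 0.0425, paired limma fit). None of the 8 passed without the arrays numbered 3. CD8 T and NK cell markers also differed between these groups. Their summed linear signal was 423 to 814 without RA and 957 to 1447 with RA, with Cd8b1 and Ncr1 below the median on all arrays. Nkg7 rose by 1.76 ± 0.16 in the paired limma fit (adjusted p = 0.00034), and by 1.69 ± 0.22 without the arrays numbered 3. Whether other cells or the sorted CD4 T cells gave these marker signals was not tested, nor was their part in the results above. In bulk RNA fewer cells of a type and less RNA per cell cannot be told apart.

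Foxp3+ cells were next compared with Foxp3- cells of the same cultures. Averaged over the 3 cultures, 0 of 87 members passed in the unpaired fit (background 0.896% of 11940 genes, 107 genes) and 1 passed in the paired fit (background 4.75%). The members' median difference was -0.05, against -0.03 for all genes. In the LP-DC culture the counts were again 0 members unpaired (background 0.159%) and 1 paired (background 3.49%). The same gene passed both times, Sdhaf1, an assembly factor for the iron-sulfur subunit of complex II. In the Sp-DC culture 0 members passed in either fit, with backgrounds of 0% unpaired and 0.586% paired. There 72 of 87 members lay below 0, with a median of -0.09 against -0.02 for all genes, and the median ran from -0.10 to -0.07 when single arrays were left out. With Sp-DC plus RA 0 members passed, with backgrounds of 0% and 0.0251%.

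Sdhaf1 had the largest difference of any tested member over the 11 comparisons. In the LP-DC culture its signal was 6.34 and 7.37 in Foxp3- cells and 7.81 and 8.62 in Foxp3+ cells, for arrays 1 and 2. Both Foxp3+ arrays lay above both Foxp3- arrays, and the pairs differed by 1.47 and 1.25. In the Sp-DC culture it was 6.41 and 6.96 in Foxp3- cells and 7.35 and 7.17 in Foxp3+ cells. Again the Foxp3+ arrays were higher without overlap, by 0.94 and 0.21 in the 2 pairs. With Sp-DC plus RA it was 7.21 in the single Foxp3- array and 7.31 and 7.72 in Foxp3+ cells, so all Foxp3+ arrays lay above the Foxp3- arrays of their own culture. The LP-DC difference was 1.36 ± 0.24 (95% interval 0.82 to 1.90, 2.57-fold) with an adjusted p of 0.0147 in the paired limma fit and 0.327 unpaired. The mean over cultures was 0.84 ± 0.15 in the paired limma fit (adjusted p = 0.0124) and 0.75 ± 0.24 in the unpaired fit (adjusted p = 0.354). The Sp-DC difference was 0.58 ± 0.24 (adjusted p = 0.477, paired limma fit) and that with RA 0.57 ± 0.30 (adjusted p = 1). The difference between the LP-DC and Sp-DC responses was 0.79 ± 0.34 with an adjusted p of 1 in the paired limma fit, so the cultures were not shown to differ.

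Single arrays decided some of these calls. In the paired limma fit the LP-DC difference was 1.04 without the first Foxp3- array (adjusted p = 0.109) and 1.18 without the second Foxp3+ array (adjusted p = 0.124). Without the first Sp-DC Foxp3- array the mean over cultures was 0.83 with an adjusted p of 0.0615. Sdhaf1 in Foxp3+ cells was also higher with LP-DC than with Sp-DC, by 0.96 ± 0.24, with an adjusted p of 0.0724 in the paired limma fit. In memory cells Sdhaf1 read 7.61, 7.78 and 6.91 without RA and 7.67, 8.15 and 7.53 with RA. The pairs differed by 0.06, 0.37 and 0.62, for a mean of 0.35 ± 0.14 (adjusted p = 0.274, paired limma fit), and of 0.22 ± 0.18 without the arrays numbered 3. The genes whose signals were most like those of Sdhaf1 over the 17 arrays were 4833439L19Rik (Pearson r = 0.891), Tsc22d1 (0.877), Pfn2 (0.876), Pex11a (0.861) and Atp13a2 (0.847). These correlations describe arrays that share cultures and array numbers. CD8 T and NK cell markers moved with the sort as well, with summed linear signals of 4392 to 5533 in Foxp3- and 1551 to 2039 in Foxp3+ cells of the LP-DC culture. In the Sp-DC culture the sums were 6090 to 6878 and 3911 to 4713. Klrd1, an NK cell receptor chain, fell by 2.56 ± 0.24 in the LP-DC culture (adjusted p = 0.00113, paired limma fit). Cd2, a T cell identity gene, rose there by 1.23 ± 0.15 (adjusted p = 0.00264, paired limma fit). Over the mean of cultures Cd2 rose by 0.93 ± 0.09 and Zap70 fell by 0.37 ± 0.09 (adjusted p = 0.00101 and 0.0444, paired limma fit). Their part in the Sdhaf1 difference was not tested.

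**Figure D2:**
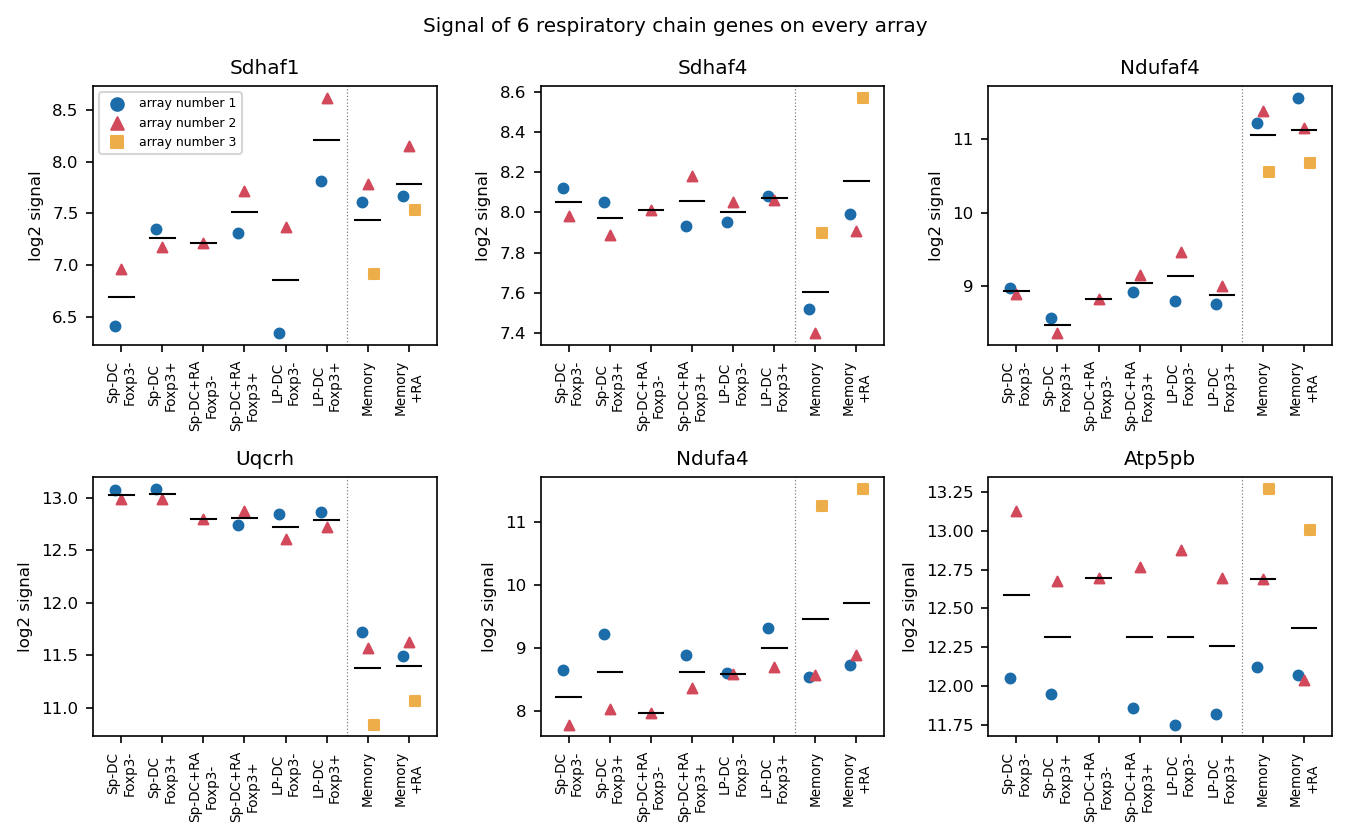
Log2 signal of 6 members on every array, by group, with 1 marker shape per array number and a line at each group mean. Sdhaf1 is higher in Foxp3+ than in Foxp3- cells of each culture, Sdhaf4 is higher with RA in memory cells, Ndufaf4 and Uqcrh separate memory from co-culture arrays, and Ndufa4 and Atp5pb follow the array number.

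The promoters of the 2 members that passed in the paired fit, Sdhaf1 and Sdhaf4, are shown with those of Ndufaf4 and Uqcrh, the members furthest above and below in memory arrays against co-culture arrays. They are RefSeq windows of 300 bases on GRCm38.p6, from 250 bases before to 50 after the annotated start, and capitals mark a motif match.
Sdhaf1 promoter (chr7:30322326-30322625, minus strand): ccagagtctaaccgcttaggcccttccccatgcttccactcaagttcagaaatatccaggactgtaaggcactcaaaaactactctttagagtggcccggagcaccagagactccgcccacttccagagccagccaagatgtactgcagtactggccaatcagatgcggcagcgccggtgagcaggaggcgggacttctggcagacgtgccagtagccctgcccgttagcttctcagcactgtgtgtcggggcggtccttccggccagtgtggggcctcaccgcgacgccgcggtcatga
Sdhaf4 promoter (chr1:24005591-24005890, minus strand): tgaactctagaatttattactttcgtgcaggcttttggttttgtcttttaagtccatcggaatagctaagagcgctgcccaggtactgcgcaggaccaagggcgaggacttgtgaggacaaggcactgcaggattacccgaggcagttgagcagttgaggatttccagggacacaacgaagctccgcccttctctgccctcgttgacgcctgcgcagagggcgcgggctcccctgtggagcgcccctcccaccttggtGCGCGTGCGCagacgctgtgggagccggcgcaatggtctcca
Ndufaf4 promoter (chr4:24897833-24898132, plus strand): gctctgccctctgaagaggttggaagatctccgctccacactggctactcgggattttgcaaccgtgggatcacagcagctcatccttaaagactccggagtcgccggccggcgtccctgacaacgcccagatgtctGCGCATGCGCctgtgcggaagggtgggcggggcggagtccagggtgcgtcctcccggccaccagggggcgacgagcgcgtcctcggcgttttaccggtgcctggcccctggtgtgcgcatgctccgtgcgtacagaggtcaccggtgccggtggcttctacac
Uqcrh promoter (chr4:116075021-116075320, minus strand): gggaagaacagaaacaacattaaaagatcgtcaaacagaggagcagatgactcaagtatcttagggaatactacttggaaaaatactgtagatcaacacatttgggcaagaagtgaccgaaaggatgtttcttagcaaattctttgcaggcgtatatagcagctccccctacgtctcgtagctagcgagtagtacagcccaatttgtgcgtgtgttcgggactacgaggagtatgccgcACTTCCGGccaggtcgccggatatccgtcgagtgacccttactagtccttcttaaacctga
Searched on both strands were GCGCA, any base, then GCGC for NRF1, CCGGAAGT for GABP (also called NRF2), AAGATGGC for YY1 and TCAAGGTCA for the oestrogen-related receptors. These are factors known for control of nuclear genes of the respiratory chain. Sdhaf4 held the NRF1 letters from base 9 after the start and Ndufaf4 from 113 bases before it. Uqcrh held the GABP letters from 11 bases before the start, and the Sdhaf1 window held none of the 4 motifs. Over the 78 members with a window in the table, 19 (24.4%) held the NRF1 motif, against 10.9% of 9662 co-culture tested genes with a window and 5.19% of all 27025 genes. The YY1 motif was in 10 members (12.8%), among them Atp5pb, Ndufb8 and Ndufs7, against 5.25% of tested genes and 3.19% of all. For GABP the shares were 6.41% of members, 8.75% of tested genes and 4.31% of all genes, and for the oestrogen-related receptors 2.56%, 0.342% and 0.466%. The 2 members with that last motif were Sdhd and Atp5g3. A match describes letters in a window and not a bound site.

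RA in the co-culture gave no member past the threshold. In Foxp3+ cells, 0 of 87 members passed in either fit, with backgrounds of 0.101% unpaired and 1.03% paired. The members' median was -0.02. Ndufaf4, a complex I assembly factor, had the largest difference, from 8.56 and 8.35 without RA to 8.91 and 9.15 with RA. Both treated arrays were higher, by 0.57 ± 0.19, with an adjusted p of 0.254 in the paired limma fit. Other cell type markers moved with RA in these Foxp3+ cells. The summed linear signal of CD8 T and NK cell markers was 2032 to 2083 with RA and 3911 to 4713 without, and Klrd1 fell by 1.43 ± 0.24 (adjusted p = 0.0247, paired limma fit). Dendritic cell and macrophage markers summed to 858 to 1010 with RA and 736 to 815 without. Their part in the members' values was not tested. In Foxp3- cells 0 members passed in either fit, with backgrounds of 0.00838% unpaired and 0.268% paired, and the treated side was 1 array. The members' median there was -0.02 in the unpaired fit and -0.11 in the paired fit, against 0.05 and 0.01 for all genes. For the interaction of RA and Foxp3 sort 0 members passed, and 0% of all genes did in either fit.

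Dendritic cell source was compared within each sort. In Foxp3+ cells, LP-DC against Sp-DC gave 0 members in either fit, against backgrounds of 0% unpaired and 1.44% paired. Atp5d, the delta subunit of the ATP synthase, was 10.69 and 11.05 with LP-DC and 11.07 and 11.69 with Sp-DC. Both pairs were lower with LP-DC, with a mean difference of -0.51 ± 0.14 (adjusted p = 0.084, paired limma fit). Cox5a, a nuclear-encoded subunit of complex IV, differed by -0.42 ± 0.14 in Foxp3+ cells and -0.44 ± 0.14 in Foxp3- cells (adjusted p = 0.146 and 0.156, paired limma fit). Nkg7, a gene of cytotoxic cells, fell with LP-DC in Foxp3+ cells, by 1.70 ± 0.23 (adjusted p = 0.0216, paired limma fit), and its part in these values was not tested. In Foxp3- cells 0 members passed, against 0% unpaired and 0.586% paired. There the members' median was -0.12 and 70 of 87 members were below 0, while the median of all genes was -0.00. This shift changed with single arrays in the unpaired fit. Without the first LP-DC Foxp3- array the median was 0.03, and without the second it was -0.32. Each of these sets an LP-DC array of 1 number against Sp-DC arrays of both numbers, so array number and source are mixed. Ndufv3, an accessory subunit of complex I, had 10.31 and 10.77 with LP-DC and 10.99 and 11.24 with Sp-DC in Foxp3- cells. The arrays did not overlap, and the difference was -0.58 ± 0.12 with an adjusted p of 0.0628 in the paired limma fit. Sdhaf3, a further complex II assembly factor, differed by -0.74 ± 0.22 (adjusted p = 0.132, paired limma fit). Its co-culture signals ran from 6.14 to 7.26, with the lowest near the array medians, which limits its value.

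LP-DC was also set against Sp-DC plus RA, where both dendritic cell source and RA differ. In Foxp3+ cells 0 members passed, against 0.0921% of all genes unpaired and 1.83% paired, and in Foxp3- cells 0 passed, against 0% and 0.511%. The members' medians in the unpaired fit were -0.01 and -0.08, against 0.01 and -0.05 for all genes. These comparisons share control arrays with those above and are no separate evidence. For the interaction of dendritic cell source and sort 0 members passed, with backgrounds of 0% in both fits. Its members' median of 0.11, against 0.04 for all genes, ran from -0.04 to 0.26 when single arrays were left out.

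**Figure D3:**
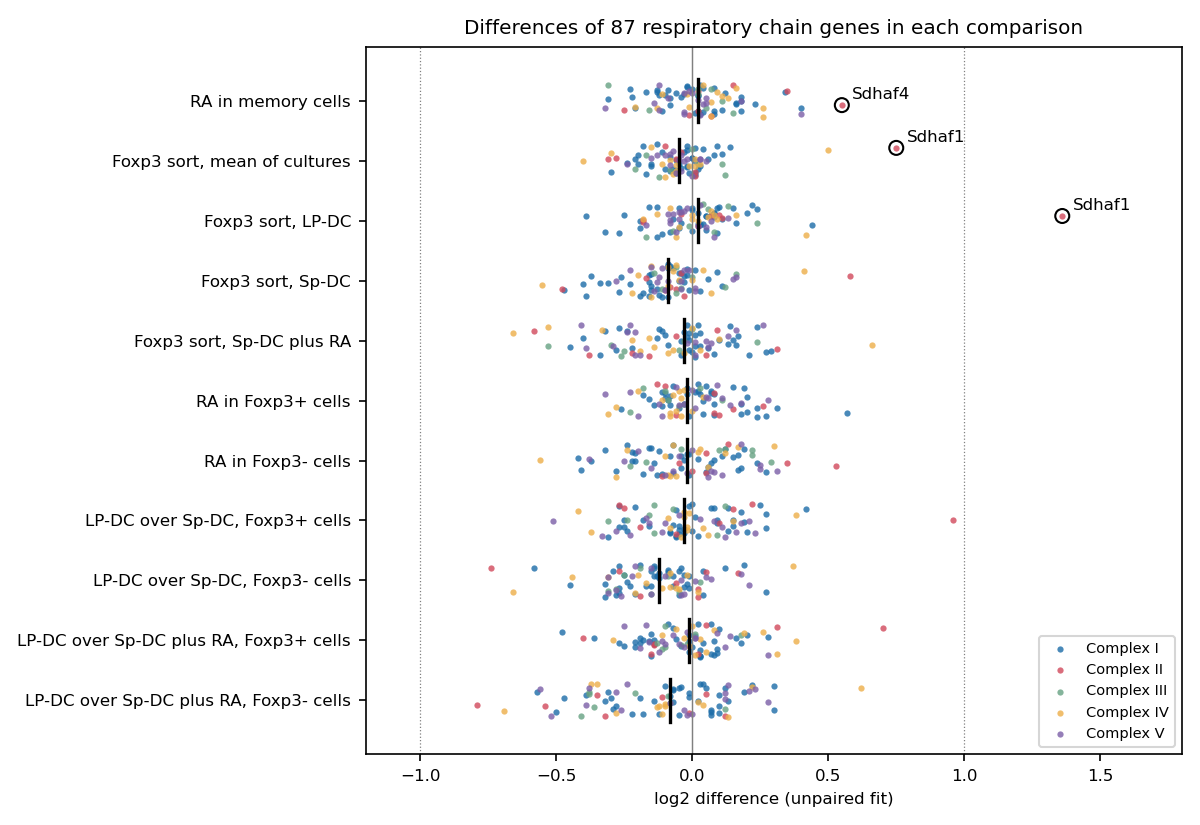
Log2 differences of the 87 tested members (points, coloured by complex) in each of 11 comparisons from the unpaired fit, with a black bar at the median and dotted lines at 2-fold. Circles mark the members that passed an adjusted p of 0.05 in the paired fit, which are Sdhaf4 once and Sdhaf1 in 2 comparisons.

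Over these 11 comparisons the paired 95% interval lay within 2-fold for 85 to 87 of 87 members, and the unpaired interval for 63 to 81. Paired, these were 97.7% to 100% of members, against 88.5% to 97.7% of all genes. Unpaired, they were 72.4% to 93.1% of members, against 67% to 94.3% of all genes. Among the lists around the chain, passes in the sort came only in the paired fit. Cox10, an enzyme in the synthesis of heme A for complex IV, fell by 0.77 ± 0.18 in the LP-DC culture (adjusted p = 0.0481, paired limma fit). Over the mean of cultures Cox10 fell by 0.58 ± 0.11 and Cox20, a chaperone of complex IV, by 0.40 ± 0.09 (adjusted p = 0.0171 and 0.0328, paired limma fit). Mrps6, a mitochondrial ribosome protein, rose by 0.78 ± 0.15 in the LP-DC culture (adjusted p = 0.0226, paired limma fit), 1 of 76 genes of its list.

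Memory and co-culture arrays differed in many members. Cell type, stimulus, TGFbeta dose, culture time and mouse strain all differed between memory and co-culture arrays and cannot be told apart, so these values are a description without a test. Of 87 members, 16 were higher in all 6 memory arrays than in all 11 co-culture arrays (18.4%), against 10.2% of 11537 genes. Another 6 were lower without overlap (6.9%, against 7.81%). The median difference was 0.12 for members and 0.05 for all genes.

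Of the 16 higher genes 11 belonged to complex I, which holds 40 of the 87 tested members and also 3 of the 6 lower genes. Its 26 accessory subunits had a median of 0.05. Its assembly factors stood at a median of 0.89 over 8 genes, 4 of them without overlap. Ndufaf4 had 8.35 to 9.46 (median 8.89) in the co-culture and 10.55 to 11.57 (median 11.19) in memory arrays, with means of 8.88 and 11.09. Every memory array thus lay at least 1.09 above every co-culture array. Ndufaf2 differed by 1.54, Ndufaf6 by 1.35 and Ndufaf5 by 1.17, with means of 6.04, 6.44 and 6.90 in the co-culture. There Ndufaf2 lay at 5.64 to 6.62 and Ndufaf6 at 5.96 to 6.86, near the array medians, which limits their values. The higher subunits of complex I were Ndufa12 (1.47), Ndufv2 (1.42), Ndufa10 (1.21), Ndufab1 (1.16), Ndufa5 (1.06), Ndufs7 (1.01) and Ndufc1 (0.94). Ndufv2 and Ndufs7 are core subunits that carry iron-sulfur clusters. Ndufab1 is also the mitochondrial acyl carrier protein. Elsewhere in the chain Sdha (0.86) and Sdhb (0.75), the catalytic pair of complex II, were higher, as were Uqcrc2 (0.76) of complex III and Cox5a (0.70) of complex IV. In complex V only Atp5g1 was higher without overlap (1.23). It is 1 of 3 genes for the same c-ring subunit.

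Uqcrh, the hinge protein of complex III, was the member furthest below over all 6 memory arrays. It had 12.61 to 13.08 (median 12.86) in the co-culture and 10.84 to 11.72 (median 11.53) in memory arrays, a difference of -1.49 between means. Ndufs4 differed by -1.15, Ndufv3 by -1.05 and Cox7a2l, counted with complex IV, by -1.03. Ndufa13 (-0.52) and Atp5h (-0.48) completed the 6. The complex IV subunits had a median of -0.40 over 11 genes. Other probe sets were above the median on all arrays for 14 of the 22 genes, and 18 of those 20 probe sets had the same sign. The exceptions were 1 probe set each of Ndufs4 (0.34) and Sdha (-0.62). Without the memory arrays numbered 3, 26 members were higher (29.9%, against 20.8% of all genes) and 14 lower (16.1%, against 17.5%). Cox7c, a small subunit of complex IV, was then furthest below (-1.50, against -0.82 with all arrays). Its signal on those memory arrays was 5.85 to 6.45, near the array medians, which limits its value. Uqcrh stood at -1.27, and 5 of the 11 complex IV subunits were lower without overlap, in place of 1.

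**Figure D4:**
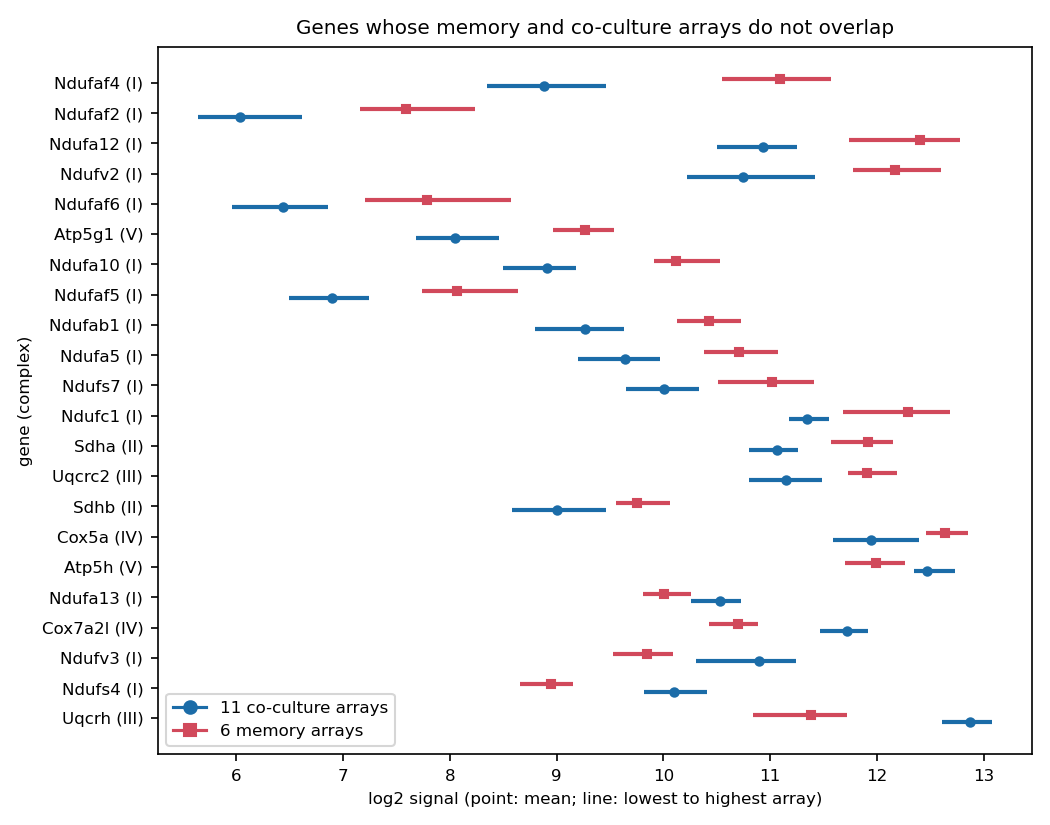
Log2 signal of the 22 members whose 6 memory arrays and 11 co-culture arrays do not overlap, with the mean as a point and a line from the lowest to the highest array. Ndufaf4 is furthest above in memory arrays and Uqcrh furthest below.

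Array numbers also separated the members. Co-culture arrays numbered 2 were higher than all numbered 1 for 19 members (21.8%, against 11.4% of all genes) and lower for 6 (6.9%, against 4.19%). Uqcrq, a small subunit of complex III, differed by 1.09, Atp5pb by 0.92, Sdhd by 0.90 and Cox7c by 0.89. Atp5pb had 11.75 to 12.05 (median 11.86) in the 5 arrays numbered 1 and 12.68 to 13.13 (median 12.74) in the 6 numbered 2. Of those lower without overlap, the furthest were Atp5c1 (-0.46), the central stalk of the ATP synthase, Ndufs3 (-0.36) and Ndufa9 (-0.30). Ndufa4 differed by -0.70, but its arrays overlapped. For 35 of 87 members (40.2%) the difference between numbers exceeded the range of the 5 group means that have both numbers, against 26.4% of all genes. The median range of group means was 0.27 for members and 0.33 for all genes, while the median difference between numbers was 0.22 and 0.19.

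In the memory experiment the arrays numbered 3 were higher than the others for 33 members (37.9%, against 29.5% of all genes) and lower for 30 (34.5%, against 38.3%). Ndufa4 read 8.55, 8.57 and 11.26 without RA and 8.73, 8.90 and 11.52 with RA, so both number 3 arrays stood above all the rest, and the means differed by 2.70. Cox7c (2.02), Cox5b (1.49), Cox4i1 (1.33) and Cox6c (1.01), further subunits of complex IV, were higher there too. On the other memory arrays Cox7c lay near the array medians, at 5.85 to 6.45. Atp5g2, another c-ring gene, differed by -1.38, Atp5mpl by -1.14 and Cox8a by -1.03. Of the 11 complex IV subunits 7 were higher without overlap and 1 lower. What the array numbers stand for is not given in the labels.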

How the data were processed

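RNA was put through repeated MessageAmp amplification and hybridised to Affymetrix arrays, per the labels' protocols. The deposited values are linear intensities of 45101 probe sets on 17 arrays, computed by the authors with RMA, per the submitters' processing notes. Whether all arrays were normalized together is not given in the sources used here. The number of arrays limits the precision.

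Log2 was taken without a pseudocount. The platform's gene table gave 34958 probe sets 1 symbol, 932 several and 9211 none, and only the first kind was used. A gene entered the tests of an experiment where at least 2 of its arrays exceeded their median (12163 genes in memory, 11940 in co-culture), run with limma 3.58.1 in R 4.3.3. Each experiment had 1 fit with a coefficient per group, two-sided, with Benjamini-Hochberg adjustment over all genes tested and a threshold of 0.05. The fit was tested on simulated data. The paired fit added the array number as a block. The labels give the numbers without saying what they mark. Residuals of same-numbered arrays correlated at 0.45 to 0.76 over 10 pairs of co-culture groups and at 0.66 to 0.94 for the memory numbers, so the numbers were taken to pair the arrays.

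Named are members that passed in either fit, the complex IV isoforms and their partners, and the c-ring and succinate dehydrogenase genes. Members with the largest differences and some of the list genes that passed are named too. Levels were not ranked between probe sets. The members with the largest differences among those that did not pass, and those singled out by experiment or array number, were chosen after their values were seen. The members and lists were chosen with earlier results of these data known. A second array of Foxp3- cells from Sp-DC plus RA was not analysed here. Alternatives covered normalization, filter, probe set choice, log scale, variance model, joint fit, the block and single arrays.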

Additional observations from a re-analysis of the deposited data

How the results depend on the processing

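With the replicate block, the number of members that passed went from 0 to 1 for RA in memory cells, for the mean Foxp3 sort and for the LP-DC sort, and stayed 0 elsewhere. Without the block it was 0 under each alternative, which says little, since the unpaired fit passed at most 107 of all genes in any comparison. With single arrays left out, the members' medians ran from -0.10 to 0.15 for the LP-DC sort. They ran from -0.15 to 0.06 for the sort with Sp-DC plus RA and -0.13 to 0.15 for RA in Foxp3+ cells. For LP-DC over Sp-DC in Foxp3- cells the range was -0.32 to 0.03. For LP-DC over Sp-DC plus RA it was -0.16 to 0.08 in Foxp3+ and -0.24 to 0.06 in Foxp3- cells. The interaction of RA and sort ran from -0.11 to 0.14, and that of dendritic cell source and sort from -0.04 to 0.26. The block also moved some medians. For RA in Foxp3- cells the median went from -0.02 to -0.11 with it, and for the interaction of RA and sort from 0.02 to 0.09. Leaving out the single Foxp3- array of Sp-DC plus RA gave no value where that group is needed, and where an array was left alone in its group it was assumed to vary like the others. In the paired fit Ndufa4 also passed in the mean sort without the second LP-DC Foxp3- array, Ndufv3 in LP-DC over Sp-DC (Foxp3- cells) with quantile normalization, and Sdhaf1 in LP-DC over Sp-DC (Foxp3+ cells) with 3 single arrays left out. Without both memory arrays numbered 3 (chosen after seeing the data) 0 members passed unpaired, with a median of -0.03. Probe sets near or below the array median on some arrays limit the isoforms, Ndufb1, Ndufb4, Cox7c, Ndufaf2, Ndufaf6, Ndufs5 and Sdhaf3.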
